A study of Mus musculus with 8 samples.

Results

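The 6 genes for the nuclear receptors of retinoids were examined for binding by fibroblast growth factor receptor 1 (FGFR1), RXR and Nur77 in the mouse embryonic stem cell line E14Tg2a. They are Rara, Rarb and Rarg, which encode the retinoic acid receptors, and Rxra, Rxrb and Rxrg, which encode the retinoid X receptors. They were chosen by name, 6 of 21951 protein-coding genes in the GENCODE M21 annotation. Each gene was taken with 20 kb upstream of its first start and 5 kb past its end, and all peaks of 8 chromatin immunoprecipitation sequencing (ChIP-seq) libraries that touched this window were kept. There were 68 such peaks, of 176687 in the 8 lists.

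Pluripotent cells (ESCs) were grown with leukemia inhibitory factor (LIF). Neuronal cells (NCs) were obtained from monolayers without LIF that were given 1 µM retinoic acid (RA) for 48 h. All libraries came from this single cell line at passages 37 to 40, and cells of several plates were pooled for a preparation. FGFR1, RXR and Nur77 were precipitated in both states, and the histone variant H3.3 in RA. FGFR1 in RA had 2 libraries, the second titled as a second experiment, and the other 6 groups had 1 library each. No allele or agent other than LIF and RA separated the groups. The peak lists hold no expression values, so cell identity was not checked against marker genes. No comparison of LIF with RA could be tested, and the sole replicate spread is that between the 2 FGFR1 libraries in RA. Nothing in the labels says that these came from separate cultures.

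Retinoic acid receptors are transcription factors that are switched by their ligand. They bind DNA as heterodimers with a retinoid X receptor, mostly at direct repeats of a short recognition unit, and a spacing of 5 bases (DR5) is the classical retinoic acid response element. Without ligand the heterodimer recruits corepressors, and ligand exchanges them for coactivators. Retinoid X receptors are also partners of other nuclear receptors, among them Nur77, the product of Nr4a1, which binds alone to an extended single unit called NBRE. Rarb is a textbook target of RA, with a DR5 element beside the start of its RARβ2 transcripts. Alternative starts in Rara and Rarg likewise give RARα2 and RARγ2, whose promoters are known to hold such elements. FGFR1 is a cell surface receptor of which a part enters the nucleus.

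The value called fold here is the ratio of the fragment pileup at a peak's summit to the local background, as the peak caller MACS2 gives it with its own p-value. The number of fragments at each summit was recovered from these 2 deposited values, and intervals are exact Poisson intervals at 95% on that number, which cover counting error only. The libraries differed in depth. The inferred background, in fragments per kb, went from 2.71 in LIF to 4.16 and 6.78 in RA (replicates 1 and 2) for FGFR1. It went from 7.09 to 1.87 for RXR and from 4.98 to 3.82 for Nur77, and H3.3 in RA stood at 1.27. At the lowest background of its library a place needed 4 to 8 fragments, or a fold of 4.11 to 4.62, to be listed. A missing peak therefore shows that enrichment was not detectable at this depth. FGFR1 replicate 2 stood apart from the other lists, with a median peak width of 311 bp against 89 to 140 bp and a median of 27 summit fragments against 9 to 12.

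The elements and repeats that the peaks are set against are shown first. DR5 was searched as 2 units in the same direction with 5 bases between, on both strands. The unit was AGGTCA or GGGTCA. With a T in place of the last G, AGTTCA and GGTTCA were also allowed. Such a repeat was found 6 times in the 742.369 kb of the 6 windows, and 4 of these lay within 1000 bp of an annotated start. They are printed in the direction of the repeat with the 2 units in capitals. Coordinates are those of the printed bases, and distances are those of the element inside them. The Rarb element is printed from chr14:16575507-16575536 on the minus strand (mm10) and begins 14 bp past the start of the transcript Rarb-201. The Rara element is printed from chr11:98960002-98960031 on the plus strand and lies 404 bp before the start of Rara-202. The Rarg element is printed from chr15:102250811-102250840 on the minus strand and lies 487 bp before the start of Rarg-206. The Rxrb element is printed from chr17:34036834-34036863 on the minus strand, against the direction of the gene. It lies 377 bp past the start of the retained-intron transcript Rxrb-208.
Rarb DR5: cgggaagGGTTCAccgaaAGTTCActcgca
Rara DR5: caggcgAGTTCAgcaagAGTTCAgccgaat
Rarg DR5: aggtcagGGTTCAaagtgAGGTCAcggtat
Rxrb DR5: gacctgcAGGTCActcaaAGGTCAcagctc

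The first question was which receptor genes were bound at a start. A proximal promoter was the 1000 bp to either side of any annotated start, and a peak counted when it shared at least 20 bp with it. FGFR1 bound 1 of the 6 promoters in LIF, that of Rxrg, where 17% of all protein-coding genes were bound. In RA it bound 5 in each replicate. Replicate 1 had Rara, Rarb, Rarg, Rxra and Rxrg, with 50.7% of all genes bound, and replicate 2 had Rara, Rarb, Rarg, Rxra and Rxrb, with 49.6%. Rara, Rarb, Rarg and Rxra were thus bound in both replicates and not in LIF, 4 of 6 genes where the same holds for 24.8% of all genes (39.5% were bound in both replicates whatever the LIF state). A peak at any start counted, and the 6 genes had 4 to 10 annotated starts each. The shares of all genes, here and below, were not matched for the number of starts. With the RA libraries scaled to the depth of the LIF library the number stayed at 5 in each replicate. With the 11378 strongest peaks of each list, replicate 1 kept 1 promoter, that of Rarb, and replicate 2 kept 5.

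RXR bound the promoters of Rara, Rarb and Rxrg in LIF, against 42.5% of all genes, and the same 3 in RA, against 23.3%. Nur77 bound Rxrg in LIF, against 25.5% of all genes, and Rarb and Rxrg in RA, against 25.8%. H3.3 was found at Rxrg, against 15.5%. Every receptor gene had a promoter peak in at least 1 library, whereas 34.5% of all genes had none in the 8. Rxrg had one in 7 libraries, a breadth reached by 8.07% of all genes. The counts for RXR, Nur77 and H3.3 differ from the background shares by no more than 2 genes of 6, and no test was made of any of these differences.

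**Figure D1:**
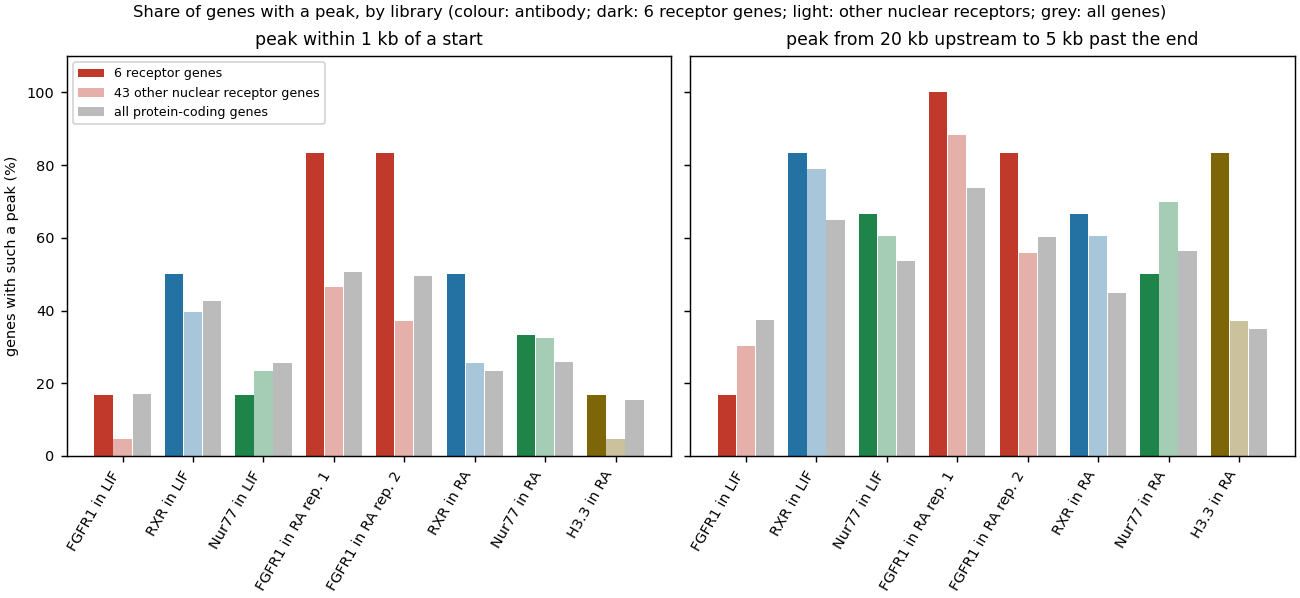
Share of genes with a peak in each library, in percent, for the 6 receptor genes, 43 other nuclear receptor genes and all protein-coding genes. On the left a peak lies within 1 kb of a start and on the right within the window from 20 kb upstream to 5 kb past the end. The FGFR1 bars in RA stand at 5 of 6 receptor genes in both replicates on the left, and at 1 of 6 in LIF.

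Over the whole windows, FGFR1 had 1 peak in LIF, in the window of 1 gene (37.4% of all genes had one). In RA it had 23 peaks over 6 genes in replicate 1 (73.8% of all genes) and 13 over 5 genes in replicate 2 (60.2%), a mean of 18 ± 7.07 peaks (SD, n = 2). RXR had 9 peaks over 5 genes in LIF (64.9%) and 6 over 4 genes in RA (44.7%). Nur77 had 5 over 4 genes in LIF (53.5%) and 6 over 3 genes in RA (56.3%). H3.3 had 5 peaks over 5 genes (35%). The RXR difference from LIF to RA, -3 peaks, turned to 3 with lists of equal length and to 6 at equal depth, and the Nur77 difference of 1 turned to -1 with lists of equal length. The windows differ in length, from 31.588 kb for Rxrb to 413.318 kb for Rarb, so peaks per gene are not comparable between genes. Rarb held 18 peaks, Rarg 16, Rara 11, Rxrb 9, Rxrg 8 and Rxra 6.

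Peaks that touched were joined into 37 sites, 12 of them in a promoter and 25 outside. Of these, 26 held peaks of RA libraries alone, 3 of LIF libraries alone and 8 of both. RA had 5 libraries and LIF 3, so these counts do not measure a gain. Of the 26, 9 came from FGFR1 replicate 1 alone and 8 from replicate 2 alone. The same count was not made over the whole lists. A single library accounted for 23 sites. Of the 5 sites found in both FGFR1 libraries in RA, 1 each lay at Rara, Rarb, Rarg and Rxra and 1 at the neighbour of Rxrb, Ring1. In shares, replicate 2 had 21.7% (95% CI 7.46 to 43.7) of the 23 peaks of replicate 1, and replicate 1 had 38.5% (13.9 to 68.4) of the 13 peaks of replicate 2. Over the whole lists these shares were 20.6% and 58.4%, both inside the intervals, which are too wide for this to show agreement. All intervals on shares are exact Clopper-Pearson intervals.

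**Figure D2:**
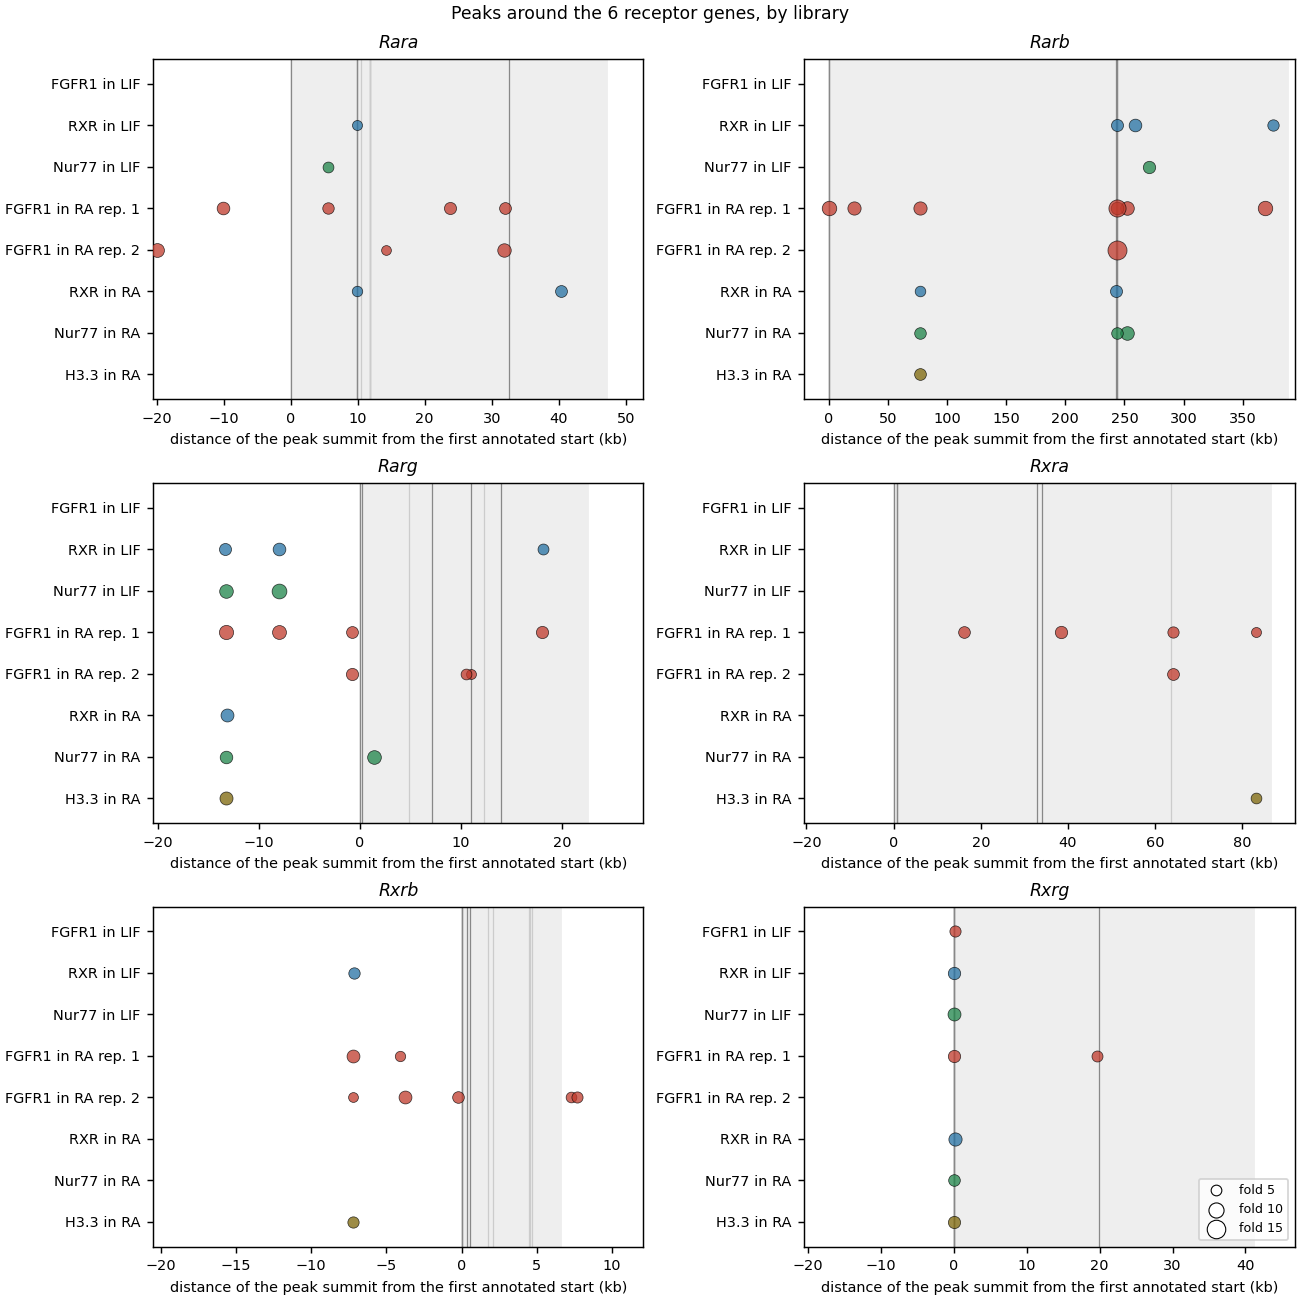
Peak summits in the windows of the 6 genes, by library, against the distance in kb from the first annotated start along the gene. Circle area is proportional to fold, grey bands are the gene bodies, dark lines the starts of protein-coding transcripts and light lines other starts. The largest circles are the FGFR1 peaks in RA at the internal start of Rarb, and Rxrg has peaks at its start in 7 libraries.

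Rarb encodes RARβ, which is itself induced by RA in many cells. Its strongest peaks, and those with the highest fold of all 68, lay at the internal start inside the gene (chr14:16430839-16819156, minus strand), where Rarb-201 and 4 other transcripts begin. FGFR1 replicate 2 in RA had a peak at chr14:16575437-16575867 with a fold of 15.9 (12.1 to 20.6), a −log10 p of 54.2 and 56 summit fragments. Replicate 1 had 12.9 (8.14 to 19.6) at chr14:16575634-16575743, with a −log10 p of 24.3 and 20 fragments. The mean fold was 14.4 ± 2.11 (SD, n = 2). These peaks had a higher −log10 p than 92.1% and 94.2% of the peaks in their own lists. By −log10 p the replicate 2 peak was also the highest of the 68, while replicate 1 stood below 3 other replicate 2 peaks, at H2-Ke6 (40.2), Rara-202 (32.6) and Rxrb-201 (25.9).

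The 2 summits lay 122 bp upstream of the Rarb-201 start in replicate 2 and 124 bp past that of Rarb-207 in replicate 1. Both sat in annotated untranslated sequence of Rarb. They were nearer still to the start of another annotated gene, Gm48162, 64 bp past it in replicate 2 and 102 bp in replicate 1. The peak lists do not say to which of the 2 genes these peaks belong. The FGFR1 library from LIF had no peak in the Rarb window. Both RA values, and the lower ends of their intervals, exceeded the 4.58 that a listing needed in the LIF library at its lowest background. The LIF background at this place is not known and the libraries differ in depth, so this does not measure a gain.

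The other libraries placed smaller peaks around the same start. RXR in LIF had a fold of 6.38 (3.36 to 11.2) at chr14:16575325-16575453, resting on 10 fragments. A second peak of FGFR1 replicate 1 at chr14:16575305-16575401 had 6.93 (3.65 to 12.2), and Nur77 in RA had 5.92 (2.82 to 11.4) at chr14:16575282-16575373, with 7 fragments. These 3 summits lay 56 to 86 bp past the start of Rarb-205. RXR in RA had its peak elsewhere, at chr14:16576206-16576321, 461 bp upstream of Rarb-207, with a fold of 6.37 (3.04 to 12.3). That interval held an alternating purine and pyrimidine run of at least 20 bp, and without such peaks RXR had no promoter peak at Rarb in RA. H3.3 and Nur77 in LIF had none at this start.

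The Rarb DR5 element shown above was the 1 of 6 that lay inside a peak. The peak was that of FGFR1 replicate 2, whose summit was 144 bp from the middle of the element. The element missed the nearest peaks of RXR in LIF by 60 bp, of FGFR1 replicate 1 by 105 bp, of Nur77 in RA by 140 bp and of RXR in RA by 677 bp. The FGFR1 replicate 1 peaks lay on either side of it, and the RXR peak in LIF and the Nur77 peak in RA lay on its downstream side.

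**Figure D3:**
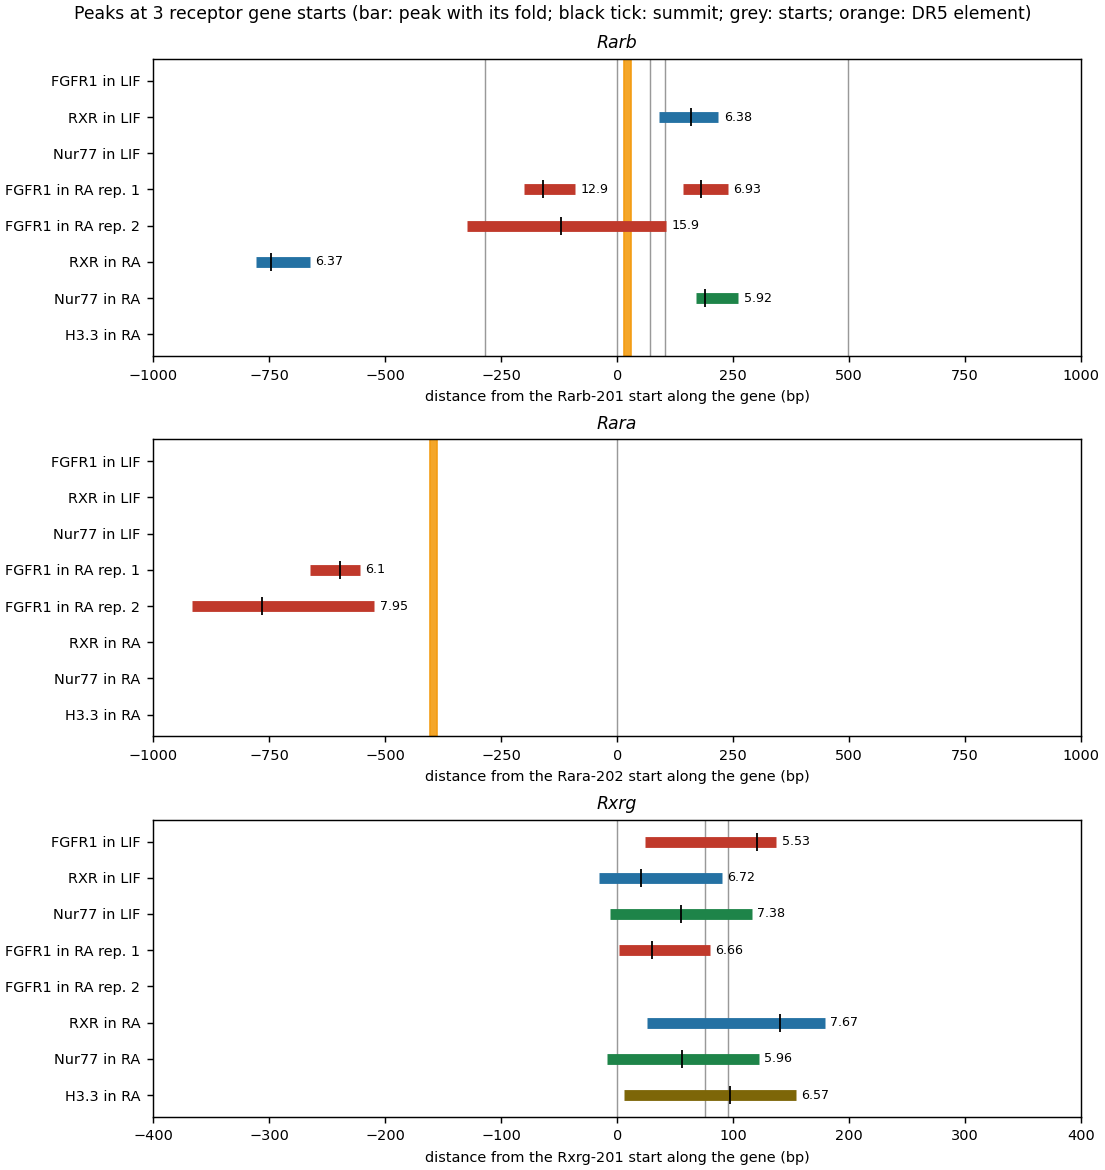
Peaks of the 8 libraries at the starts of Rarb-201, Rara-202 and Rxrg-201, against the distance in bp from the start along the gene. Bars are peaks with their fold, black ticks summits, grey lines annotated starts and orange bands DR5 elements. At Rarb the orange band lies inside the replicate 2 bar and between the 2 bars of replicate 1, at Rara it lies past the ends of both bars, and at Rxrg 7 bars overlap.

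At the upstream start of Rarb, from which the longest transcripts run, FGFR1 replicate 1 alone had a peak, at chr14:16818804-16818881 in a coding exon and 162 bp past the start of Rarb-204. Its fold was 9.23 (4.99 to 15.9) on 11 fragments. About 8 kb inside the internal start, FGFR1 replicate 1 and Nur77 in RA shared an intronic site with folds of 8.11 (4.28 to 14.3) and 8.14 (4.29 to 14.3), their summits 7994 and 7964 bp past Rarb-206. The other Rarb peaks were single. RXR in LIF had 2, at 7.02 and 5.70, Nur77 in LIF had 1 at 6.71 in a coding exon, and FGFR1 replicate 1 had 2, at 9.20 and 7.69.

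A last Rarb site, in an intron about 77 kb past the start of Rarb-204, held peaks in 4 of the 5 RA libraries and in no LIF library. Nur77 had a fold of 5.92, RXR 4.93, H3.3 6.07 and FGFR1 replicate 1 7.69, on 5 to 9 fragments, and their intervals overlapped. The sequence of this site is made largely of a repeated unit, and it is shown because the same place was listed with 4 antibodies. It lies at chr14:16741473-16741670 on the minus strand, and capitals mark words of 8 bases that occur more than once in it, which cover 67.7% of its bases.
Rarb intron site: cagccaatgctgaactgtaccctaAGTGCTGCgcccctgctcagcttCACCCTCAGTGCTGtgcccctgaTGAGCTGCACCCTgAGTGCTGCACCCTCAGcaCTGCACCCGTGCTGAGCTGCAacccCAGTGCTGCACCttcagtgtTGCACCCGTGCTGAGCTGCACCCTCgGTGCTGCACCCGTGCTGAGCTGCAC

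Rara encodes RARα, the most widely expressed of the retinoic acid receptors. FGFR1 and RXR were found at different starts of this gene (chr11:98927818-98974942, plus strand). In both FGFR1 libraries in RA a peak lay before Rara-202, the most downstream start. The fold was 7.95 (5.99 to 10.4) in replicate 2, at chr11:98959495-98959888 with 53 fragments, and 6.10 (3.38 to 10.3) in replicate 1, at chr11:98959749-98959857 with 12 fragments. The mean was 7.02 ± 1.31 (SD, n = 2). The summits lay 766 and 598 bp upstream of the start, and the ends of the peaks missed the Rara DR5 element by 120 and 151 bp. No other library had a peak there. The stretch below runs from the part common to both peaks to the end of the element (chr11:98959749-98960024, plus strand), with the 2 units of the element in capitals.
Rara stretch: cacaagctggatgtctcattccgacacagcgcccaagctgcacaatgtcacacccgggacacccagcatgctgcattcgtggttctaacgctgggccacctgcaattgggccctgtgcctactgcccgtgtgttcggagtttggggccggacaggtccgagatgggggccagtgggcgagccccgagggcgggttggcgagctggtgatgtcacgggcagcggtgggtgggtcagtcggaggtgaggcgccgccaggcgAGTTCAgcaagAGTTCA

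RXR was found instead at the Rara-201 start, in both states. The fold was 4.42 (2.68 to 6.93) in LIF on 17 fragments and 4.80 (2.45 to 8.68) in RA on 9, with summits 21 and 32 bp past the start. The values in LIF and RA were well within each other's intervals. The local background of these peaks, 3.07 fragments in LIF and 1.08 in RA, was above the lowest of each library (0.568 and 0.217). The fold needed at the lowest background therefore does not apply to them. The peaks had a higher −log10 p than 21.8% of the list in LIF and 3.18% in RA. Further upstream, Nur77 in LIF (5.15) and FGFR1 replicate 1 in RA (5.78) shared an intronic site 4376 and 4347 bp before Rara-204. The remaining Rara peaks each came from 1 library. Of these, 2 lay in the neighbouring gene Cdc6, which encodes a DNA replication licensing factor, and the peak of replicate 2 there (8.41) was 111 bp past the Cdc6 start.

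Rarg encodes RARγ, the receptor that is prominent in early embryonic cells. FGFR1 in RA bound the promoter of its outermost start, Rarg-201 (gene at chr15:102234938-102257517, minus strand), in both replicates. The folds were 6.17 (3.25 to 10.9) in replicate 1 and 6.57 (4.09 to 10.1) in replicate 2, a mean of 6.37 ± 0.286 (SD, n = 2). Their summits were 768 and 774 bp upstream of the start, 6 bp apart. Replicate 2 had 2 more promoter peaks at Rarg-202, at 9 bp (4.33) and 555 bp (5.10) upstream. The peak at 555 bp held an alternating purine and pyrimidine run of at least 20 bp. The DR5 element before Rarg-206 lay 3679 bp from the nearest peak of any library. RXR and Nur77 had no promoter peak at Rarg in either state.

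Outside the promoter, Rarg carried some of the most widely shared sites. Within the gene, RXR in LIF (5.24) and FGFR1 replicate 1 in RA (6.57) touched at a site with summits 4223 and 4127 bp past Rarg-204. Nur77 in RA had a single intronic peak of 8.22 in an alternating run. About 8 kb upstream a site was shared by Nur77 in LIF, with a fold of 9.59 (5.89 to 14.9) on 18 fragments, FGFR1 replicate 1 in RA with 8.49 (4.59 to 14.6) and RXR in LIF with 7.06 (4.00 to 11.7). This place is a long alternating purine and pyrimidine stretch, shown from chr15:102265474-102265588 on the minus strand with alternating runs of at least 20 bases in capitals.
Rarg upstream site: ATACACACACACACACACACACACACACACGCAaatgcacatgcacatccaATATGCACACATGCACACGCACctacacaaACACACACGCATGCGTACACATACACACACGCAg

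About 13 kb upstream of Rarg, in a coding exon of the annotated gene Gm9918, a site was listed in 6 of 8 libraries, all but FGFR1 in LIF and FGFR1 replicate 2 in RA. The RXR fold was 6.37 in LIF and 7.35 in RA, and the Nur77 fold 8.15 and 6.92. FGFR1 replicate 1 had 8.88 and H3.3 7.47. These rested on 8 to 13 fragments, and every pair of their intervals overlapped. The sequence at chr15:102270631-102270919 (minus strand) is shown with repeated words of 8 bases in capitals, which cover 35.3% of it.
Gm9918 exon site: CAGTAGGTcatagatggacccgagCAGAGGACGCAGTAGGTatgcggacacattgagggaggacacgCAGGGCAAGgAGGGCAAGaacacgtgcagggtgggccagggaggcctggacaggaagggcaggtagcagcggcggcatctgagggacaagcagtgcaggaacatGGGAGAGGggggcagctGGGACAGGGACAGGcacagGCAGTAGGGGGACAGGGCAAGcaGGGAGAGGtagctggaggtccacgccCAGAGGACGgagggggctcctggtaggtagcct

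Rxra encodes RXRα, the common partner in many tissues. Its 5 protein-coding transcripts (gene at chr2:27676440-27762957, plus strand) had no peak within 1000 bp of their starts in any library. Both FGFR1 promoter calls in RA came from the start of Rxra-205, a short transcript without a coding sequence inside the gene. The fold there was 6.15 (3.87 to 9.35) in replicate 2, at chr2:27740334-27740510, and 5.59 (3.02 to 9.64) in replicate 1, at chr2:27740425-27740553, a mean of 5.87 ± 0.399 (SD, n = 2). With starts of protein-coding transcripts alone, the FGFR1 difference between RA and LIF was 3 genes in place of 4. In the last exon, FGFR1 replicate 1 (4.38) and H3.3 (5.07) in RA overlapped. FGFR1 replicate 1 also had 2 intronic peaks, at 6.03 and 6.69. RXR and Nur77 had no peak in the Rxra window in either state.

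Rxrb encodes RXRβ and lies among closely packed genes (chr17:34031812-34038399, plus strand). FGFR1 replicate 2 in RA was the sole library with a promoter peak, at chr17:34031415-34031889, with a fold of 5.98 (4.50 to 7.78) on 53 fragments. Its summit was 248 bp upstream of Rxrb-201 and in untranslated sequence of Slc39a7, the zinc transporter gene that runs the other way. It was also 16 bp past the start of another annotated gene, Gm20427. The peak lists do not say to which gene this peak belongs. The other peaks of the window lay by the starts of neighbours. At Ring1, a Polycomb ubiquitin ligase gene about 7.2 kb upstream, RXR in LIF had 5.70, FGFR1 in RA had 7.27 and 4.23 in replicates 1 and 2, and H3.3 had 5.60, with summits 23 to 68 bp past the Ring1 start. Replicate 2 had the largest number of summit fragments of the 68 peaks, 73, at chr17:34027876-34028259 by H2-Ke6, with a fold of 7.26 (5.72 to 9.11).

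The H2-Ke6 peak held the 1 of 8 DR1 elements in the windows that lay inside a peak. This element, at chr17:34027880-34027892, was at the edge of the peak, whose summit was at chr17:34028049. RXR had no peak there in either state. DR1 is the same pair of units with 1 base between, and is the arrangement known for RXR homodimers. The element is printed from chr17:34027872-34027901 on the plus strand with the units in capitals.
Rxrb upstream DR1: aagggaggAGGTCAgAGGTCAcggggcgca

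Rxrg encodes RXRγ, whose expression is restricted in the embryo mostly to neural and muscle tissue. The outer start of this gene (chr1:167598384-167639623, plus strand) was the place with the most libraries, 7 of 8. The FGFR1 fold was 5.53 (2.64 to 10.7) in LIF and 6.66 (3.41 to 12.1) in replicate 1 in RA. The RXR fold was 6.72 (3.72 to 11.4) in LIF and 7.67 (3.93 to 13.9) in RA. Nur77 had 7.38 (4.09 to 12.5) in LIF and 5.96 (2.95 to 11.1) in RA, and H3.3 in RA had 6.57 (3.13 to 12.7). Each rested on 7 to 12 fragments, and the 7 intervals all overlapped. Intervals this wide cannot show that the listed libraries or states were alike. The 7 peaks shared chr1:167598410-167598464, with summits at most 119 bp apart. The FGFR1 peak in LIF was the only FGFR1 peak of that library in the 6 windows and had a higher −log10 p than 7.60% of its list.

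FGFR1 replicate 2 in RA was the library without a peak at the Rxrg start. Its background density was higher than that of replicate 1. At its lowest background a listing needed 8 fragments, against 5 in replicate 1. The part of depth in the missing peak was not tested. Replicate 1 had a further peak 241 bp before the inner start Rxrg-202, with a fold of 5.33 (2.54 to 10.3) on 7 fragments. It ended 50 bp from an NBRE match.

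**Figure D4:**
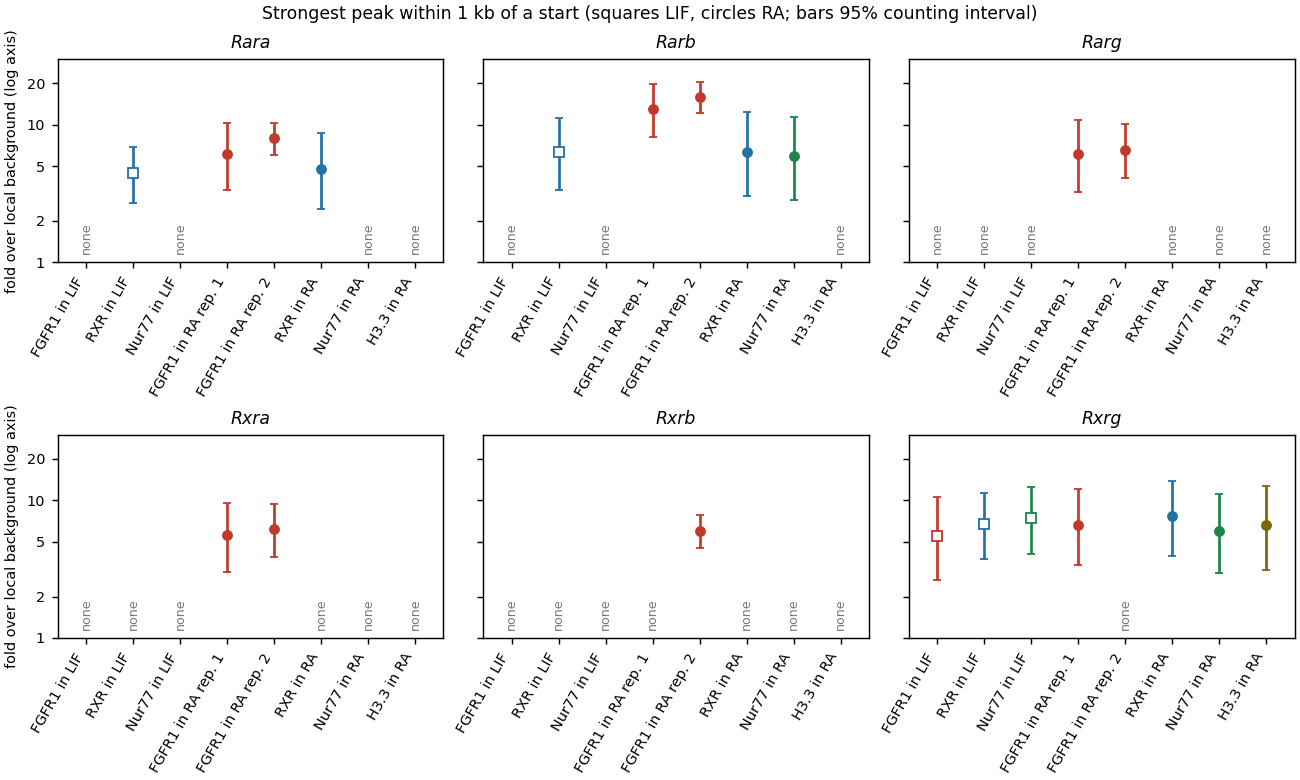
Fold over local background, on a log axis, of the strongest peak within 1 kb of a start of each gene in each library. Squares are LIF and circles RA, bars are 95% counting intervals, and "none" marks a library with no such peak. The FGFR1 values in RA at Rarb, 12.9 and 15.9, lie above every other value, and at Rxrg the 7 intervals overlap.

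The places shared by many antibodies were then set beside one another. Of the 37 sites, 5 held peaks of at least 4 libraries: the internal start of Rarb, the Rarb intron, the Gm9918 exon, the Ring1 start and the Rxrg start. FGFR1 replicate 2 was missing from 3 of these, the Rarb intron, the Gm9918 exon and the Rxrg start. The median share of bases in repeated 8-base words was 35.3% over these 5 sites and 78.3% at the 1 site in 3 libraries. It was 0% over the 8 sites in 2 libraries and 12.6% over the 23 in 1. A longer stretch has more room for a word to recur. The 5 sites were 196 to 586 bp long, and length was not matched. Over whole lists the median share per peak ran from 7.17% (FGFR1 replicate 1) to 40.5% (FGFR1 in LIF), so repeated words were common in peaks elsewhere too. The part of such sequence, and of the missing control library, in these peaks was not tested.

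**Figure D5:**
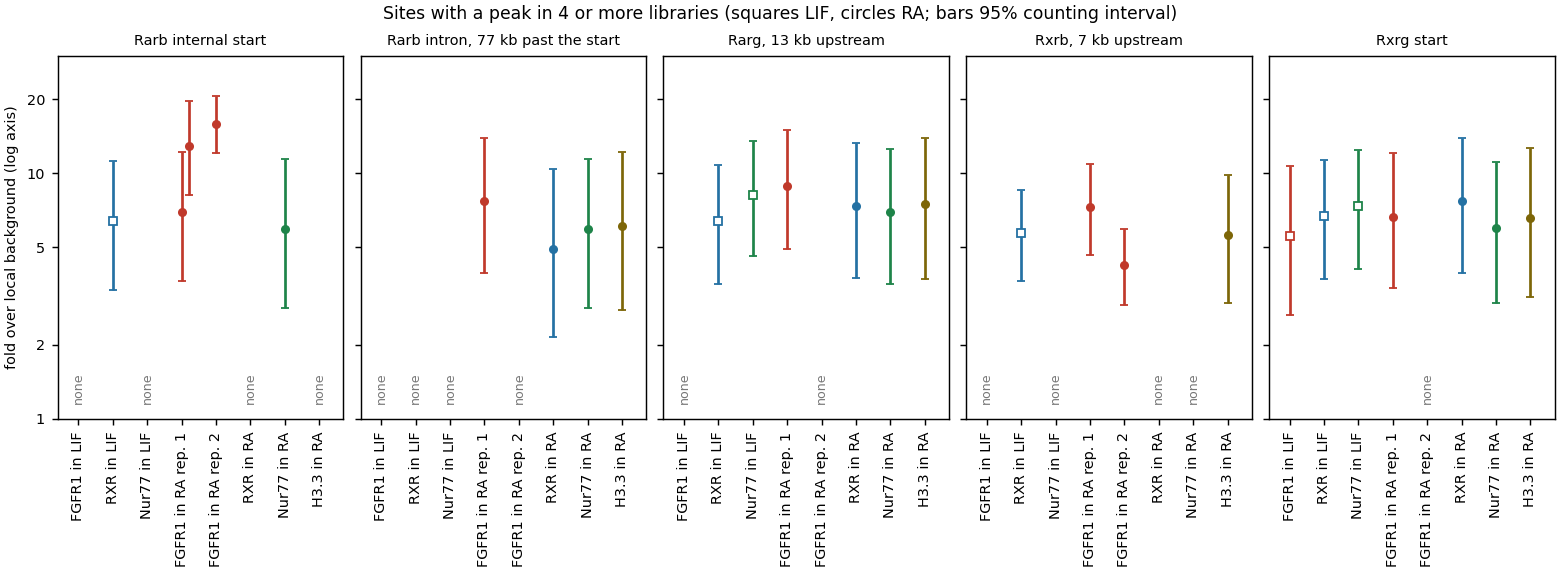
Fold, on a log axis, at the 5 sites with peaks in 4 or more libraries. Squares are LIF and circles RA, and bars are 95% counting intervals. At 4 of the sites the values lie between 4.23 and 8.88 whatever the antibody, while at the internal start of Rarb the strongest peaks of the FGFR1 libraries in RA reach 12.9 and 15.9.

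Co-binding was read as peaks sharing at least 1 bp. In LIF, 1 of 9 RXR peaks (11.1%, 0.281 to 48.2) and 1 of 5 Nur77 peaks (20%, 0.505 to 71.6) overlapped an FGFR1 peak, in both cases at the Rxrg start. The shares over the whole RXR and Nur77 lists were 19.9% and 22.7%. In RA, 3 of 6 RXR peaks (50%, 11.8 to 88.2) and 5 of 6 Nur77 peaks (83.3%, 35.9 to 99.6) overlapped a peak of FGFR1 replicate 1, and 0 of 6 of either (up to 45.9%) overlapped replicate 2. The whole lists gave 61.6% of RXR and 48.6% of Nur77 peaks with replicate 1, and 22.2% and 13.6% with replicate 2. All 6 whole-list shares lay inside the intervals of the receptor genes. With so few peaks the intervals are wide, and they treat peaks of 1 library as independent. Lying inside them therefore does not show agreement. The 3 RXR peaks with FGFR1 in RA were those at the Rarb intron, the Gm9918 exon and the Rxrg start, where H3.3 and Nur77 peaks also lay. All 5 H3.3 peaks overlapped replicate 1 (71.0% of the whole list) and 1 overlapped replicate 2 (20.5%). Between states, 3 of 9 RXR peaks and 2 of 5 Nur77 peaks of LIF were found again in RA, against 25.5% and 35.5% of the whole lists. The 3 RXR places were Rara-201, the Gm9918 exon and the Rxrg start, and the Nur77 places were the last 2 of these.

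Matches to response elements were also counted in the peaks. The peaks covered only a small part of the windows, and no expected number by covered length was worked out. Low counts here therefore do not show depletion. The windows held 8 DR1, 8 DR2 (units 2 bases apart), 50 NBRE (AAAGGTCA) and 1 CRE (TGACGTCA, the element of CREB) besides the 6 DR5. The NBRE letters can overlap the units of a direct repeat and do so in the Rxrb DR5. Of these matches 1 DR5 and 1 DR1 lay inside a peak, both of FGFR1 replicate 2, and 0 of the NBRE, DR2 and CRE. Over whole lists, DR5 was held by 0.00879% to 0.0539% of peaks. FGFR1 replicate 2, in whose wider peaks both matches lay, held DR1 in 0.334% of peaks against 0.0309% to 0.0985% in the other lists, NBRE in 0.724% against 0.137% to 0.210%, and CRE in 3.16% against 0.618% to 0.993%. Among 32851 RefSeq promoters of 300 bp (GRCm38.p6), 0.0974% held a DR5, 0.222% a DR1, 0.268% a DR2, 1.51% an NBRE and 1.79% a CRE. The table holds 13 promoters of the 6 genes. Rarb had the DR5, Rxra and Rxrg each had an NBRE, and none held a DR1, DR2 or CRE.

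The wider retinoid pathway was counted in the same way at promoters. Among 43 other nuclear receptor genes, FGFR1 bound 2 in LIF and 20 and 16 in the RA replicates, and 12 (27.9%) were bound in both replicates and not in LIF, near the 24.8% of all genes. RXR bound 17 of them in LIF and 11 in RA, Nur77 10 and 14, and H3.3 2. For comparison, the shares of all genes given above were 17% in LIF and 50.7% and 49.6% in RA for FGFR1, 42.5% and 23.3% for RXR, 25.5% and 25.8% for Nur77, and 15.5% for H3.3. Among 12 genes of retinoid synthesis, breakdown and transport, FGFR1 bound 0 in LIF and 6 (50%) and 4 (33.3%) in RA. The shares of all genes were 17%, 50.7% and 49.6%, so replicate 1 stood at its share. The 4 bound in both replicates (33.3%, against 24.8% of all genes for both replicates and not LIF), which all lacked an FGFR1 promoter peak in LIF, were Rdh10, an enzyme of retinal synthesis, Dhrs3, which reverses that step, Cyp26a1, which degrades RA, and Crabp1, which binds it in the cytoplasm. RXR bound 6 of the 12 in LIF and 2 in RA, Nur77 1 in each state, and H3.3 4. Among 13 coactivators, corepressors and related cofactors, FGFR1 bound 2 in LIF and 11 and 10 in RA, RXR 11 and 4, Nur77 4 and 6, and H3.3 3. In RA, FGFR1 thus bound 84.6% and 76.9% of the cofactor genes in replicates 1 and 2, 83.3% of the 6 receptor genes in each, and 46.5% and 37.2% of the other nuclear receptor genes. The order of cofactors and receptors differed between the replicates, and no difference between these lists was tested.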

How the data were processed

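ChIP-seq peak lists of 8 libraries were used, grouped by the sample titles. Per the study's methods, the authors aligned reads to mm10 with Bowtie 1.0, kept uniquely placed reads, and ran MACS2 on every library by itself with p below 1e-05 and no control library named. In the deposited lists the fold is a ratio of summit pileup to local background, the −log10 p and −log10 q describe the summit, and the deposited score is a truncated multiple of the −log10 p. Fragments at each summit and the background were solved from the deposited fold and −log10 p with the Poisson tail of MACS2, within 0.002 of the −log10 p, for 100% of peaks. The solver was tested on simulated data. The background per kb served as depth, since totals are not in the lists. Fragments may not be independent molecules, so intervals cover counting error only.

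Starts came from GENCODE M21 and sequence from the GRCm38 assembly, on the coordinates of mm10. Python 3.11.15, pandas 2.3.3 and scipy 1.17.1 were used. All 6 receptor genes are named. The genes and lists were chosen with earlier results of these data known, and no p-value was computed. Alternatives were 500 bp or 5000 bp promoters, protein-coding starts, summits in place of overlap, stricter limits, equal list lengths, equal depth, peaks without alternating runs, other windows and overlaps, and leaving out either FGFR1 library.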

Additional observations from a re-analysis of the deposited data

Results flagged for a closer look

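The number of peaks in the 6 windows moved in different directions between antibodies from LIF to RA. It rose by 22 for FGFR1 with replicate 1 and by 12 with replicate 2, changed by -3 for RXR, and rose by 1 for Nur77. These differences between antibodies were not tested, since RXR and Nur77 had no replicate. Depth moved with them: the background density rose from 2.71 to 4.16 and 6.78 fragments per kb for FGFR1 and fell from 7.09 to 1.87 for RXR and from 4.98 to 3.82 for Nur77. The part of depth in these counts was not tested beyond the scaling described below.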

How the results depend on the processing

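From LIF to RA, FGFR1 gained 4 promoter genes and 17 peaks in the windows, RXR 0 and -3, and Nur77 1 and 1, while H3.3 in RA had 1 and 5. The FGFR1 values, as means of the 2 RA libraries, kept their direction under every alternative run. For promoter genes they were 2.50 with 500 bp promoters, 4.50 from 5000 bp upstream, 3 with protein-coding starts, 3 at a −log10 p of at least 10 and 2 with equal list lengths. With equal lists replicate 1 had 1 promoter gene, as many as LIF, and replicate 2 had 5, so that value rests on replicate 2. At the stricter limit LIF had 0, replicate 1 had 1 and replicate 2 had 5. Leaving out either FGFR1 library in RA gave 4 promoter genes each time and 12 to 22 window peaks, and equal list lengths gave 6.50 peaks. The RXR and Nur77 values did not keep theirs. RXR promoter genes were 2 with equal lists, 3 at equal depth and -1 without alternating runs, and Nur77 promoter genes were -1 both at the stricter limit and with equal lists. RXR window peaks were -5 with 50 kb upstream, -1 at the stricter limit, 3 with equal lists and 6 at equal depth, where the LIF list shrank from 30586 to 3738 peaks. Nur77 window peaks were 0 with 50 kb upstream and at the stricter limit, and -1 with equal lists. For H3.3 the stricter limit left 0 promoter genes and 1 window peak. Without alternating runs, 100% of the Nur77 peaks in RA overlapped FGFR1 replicate 1. The causes were not tested, apart from the smaller lists that each setting makes by construction. A −log10 q of at least 2 removed no peak. No paired analysis was possible because no test was run and the groups share no replicate pairs.

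At equal depth peaks are removed from the deeper library alone. A median of 12 fragments per summit limits comparisons of fold, and places with a fold under 4.11 to 4.62 at the lowest background are not listed.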
